A study of Oryza sativa and Oryza rufipogon with 8 samples.

Results

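Roots of the wild rice *O. rufipogon* were compared after 5 days without added iron (−Fe) and in complete solution (CC), across the genes of this species alone. The set is defined by its labels: 4 of the 8 libraries of the series come from this species, 2 under CC and 2 under −Fe, and all plants were of 1 seed accession obtained from EMBRAPA Rice & Beans. Plants were first grown in distilled water, in vermiculite after germination. They were then acclimated in nutrient solution with 100 µM Fe(III)-EDTA before the treatments began. CC plants stayed at 100 µM and −Fe plants received 0 µM, with the other nutrients, phosphate and sulfate included, supplied to both. Each library holds RNA pooled from 3 biological replicates, as the study's methods describe. Nothing says whether both libraries of a treatment came from separate pools, so the p-values below measure the spread between these libraries, which may be technical. Counts summed over the transcripts of a gene were available for 37071 genes, and 21081 of them had 5 or more counts in 2 or more libraries and were tested.

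Grasses acquire iron by releasing chelators of the mugineic acid family, which are built from methionine through S-adenosylmethionine and nicotianamine, and by taking up the iron(III)-chelate complexes with transporters of the YSL family. Rice is known for combining this route with direct uptake of ferrous iron through IRT1. The bHLH transcription factor IRO2 activates genes of the chelator route, and the iron-binding ubiquitin ligases HRZ1 and HRZ2 restrain iron acquisition when iron is sufficient. Roles named below are those known from *O. sativa*, since the gene symbols were carried over from the study's table of ortholog pairs. No root or leaf marker is annotated for the *O. rufipogon* identifiers in the sources used here, so the labelled tissue was not checked against markers, and no sequence is shown because none was provided for this species.

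The total of estimated counts lay between 14758304 and 18857150 per library, and 3 counts, taken as the floor of detection, corresponded to between 0.159 and 0.203 CPM (counts scaled to a common library size). Floors and counting intervals cover counting error only. The pair of −Fe libraries was tighter than the pair of CC libraries. Among 15460 genes with a mean count of at least 50, 28 differed more than 2-fold between −Fe 1 and −Fe 2, against 716 between CC 1 and CC 2, of which 567 were higher in CC 2. The chi-square of a pair over its degrees of freedom, which counting noise alone would leave near 1, was 4.13 for −Fe and 21.8 for CC. CC 2 stood apart most clearly: 71 genes were more than 4-fold higher there than in each of the other 3 libraries. These 71 genes held 0.549% of its counts and at most 0.0799% elsewhere, only 1 of them was called, and none belongs to the gene lists below. Reads were shared with another gene, so that an estimate was not within 0.01 of a whole number, for 37.3% of the tested genes, and such genes are marked as sharing reads because their values are uncertain to that extent.

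The rises were more numerous and larger than the falls. Under −Fe, 16% of the tested genes were called at an FDR of 0.05 by the quasi-likelihood test of edgeR, with 11.9% up (2504 genes) and 4.15% down (874 genes). Up-regulated genes had a median change of 1.91 on the log2 scale, and 2064 of them changed by more than 1. Down-regulated genes had a median size of 0.74, and 225 of them passed 1 in size. The median over all tested genes was 0.0079. In a bulk root sample, fewer cells of a type and less RNA per cell cannot be told apart. The sets also differed in level: the median of the mean level was 5.70 CPM for the up-regulated genes and 58.7 CPM for the down-regulated genes, against 13.6 CPM for all tested genes. Together the up-regulated genes held 7.32% and 6.55% of the CPM of the CC libraries and 16.5% and 15.4% of that of the −Fe libraries. The down-regulated genes held 9.65% and 10.9% under CC and 6.12% and 6.33% under −Fe, a separation that the choice of the sets fixes.

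These counts depended on which library was left out. Without −Fe 1 there were 110 up-regulated and 3 down-regulated genes, and without −Fe 2 there were 353 and 4. Without CC 2 the same test called 3955 genes up and 2607 down, and without CC 1 it called 4961 and 4643. In these fits the lone library of a treatment is assumed to vary like the pair of the other treatment. None of the 3378 called genes was called in the opposite direction in any of the 4 fits, and without CC 2 2484 of the 2504 rises and 860 of the 874 falls were called again. The split between directions also depended on the method. Of the called genes, 74.1% were up in edgeR with TMM factors, 71.9% with median-ratio factors and 81.3% with upper-quartile factors (621 genes down). DESeq2 gave 63.9%, and limma on log2 of the deposited TPM plus 1 and plus 0.1 gave 62.0% and 62.2%. The last scale moved the median of all genes to −0.11.

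**Figure D1:**
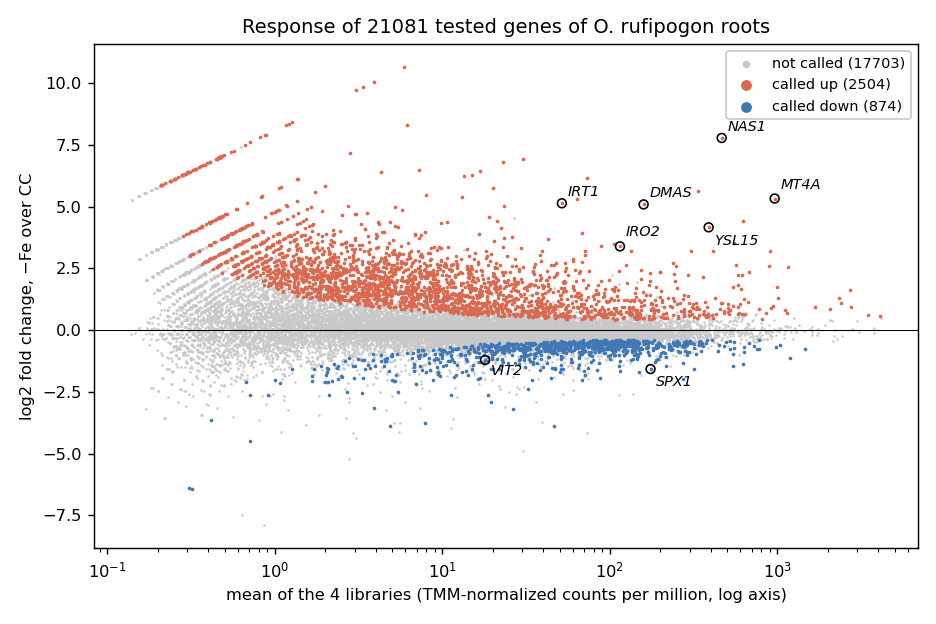
Log2 fold change (−Fe over CC) of each of the 21081 tested genes against its mean level in the 4 libraries (CPM, log axis), coloured by the edgeR call at an FDR of 0.05, with 8 genes of the lists circled. The 2504 up-regulated genes reach larger changes and lower levels than the 874 down-regulated genes, and the straight lines of points at the left are genes with few or 0 counts under CC.

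The genes of iron acquisition rose together. Of 24 genes in 4 lists (chelator synthesis, methionine cycle, transport, regulators), 23 were up and 1 was down, and the median log2 fold change was 3.20 against 0.0079 over all genes. The lists were put together here from the study's table of ortholog pairs that responded in these samples and in *O. sativa*, so their direction is not independent evidence. For every gene of the 24, the CC and −Fe libraries did not overlap, which also holds for 65.1% of all tested genes (both −Fe libraries above both CC libraries for 35% and below for 30.1%). The counts were 23 and 1 again without either CC library. Without −Fe 1 the test called 17 of 23 testable genes up and 0 down, and without −Fe 2 it called 21 up and 0 down.

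Of the 4 lists, chelator synthesis had the largest median log2 fold change, 5.09. *NAS1* (ORUFI03G15260, chromosome 3), which makes nicotianamine from S-adenosylmethionine, was at 5.23 and 3.27 CPM in CC 1 and CC 2 and at 1063 and 787 CPM in −Fe 1 and −Fe 2. Both −Fe libraries stood far above both CC libraries, a 219-fold rise (log2 fold change 7.77 with a standard error, SE, of 0.301, adjusted p = 0.000675 in edgeR). *NAAT1* (ORUFI02G13810, chromosome 2), the aminotransferase of the next step, had 67.8 and 45.0 CPM under CC and 1231 and 1155 CPM under −Fe, a change of 4.40 ± 0.227 SE on the log2 scale (adjusted p = 0.00117 in edgeR). It was the gene of the 3 with the highest CC level, and its relative rise was the smallest of them. *DMAS* (ORUFI03G09980, chromosome 3), the reductase that completes deoxymugineic acid, had 9.72 and 8.46 CPM under CC and 335 and 282 CPM under −Fe (log2 fold change 5.09 ± 0.161 SE, adjusted p = 0.000527 in edgeR). None of the 3 genes shared reads. Per transcript length, the mean levels under −Fe were 1369 TPM for *NAS1*, 1054 TPM for *NAAT1* and 415 TPM for *DMAS*, whereas under CC the highest of the 3 was *NAAT1* with 54.7 TPM and *NAS1* was lowest with 6.93 TPM.

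All 9 genes listed for the methionine cycle and the use of its by-products rose, by 1.58 to 3.54 on the log2 scale. *SAM2* (ORUFI01G14960, chromosome 1) encodes an S-adenosylmethionine synthase, the enzyme that supplies the substrate of nicotianamine synthesis. Its level was 251 and 195 CPM under CC and 1186 and 1088 CPM under −Fe (log2 fold change 2.35 ± 0.160 SE, adjusted p = 0.00166 in edgeR). *MTK1* (ORUFI04G30700, chromosome 4), the methylthioribose kinase of the salvage pathway, had 73.9 and 45.6 CPM under CC and 578 and 523 CPM under −Fe (log2 fold change 3.20 ± 0.244 SE, adjusted p = 0.00203 in edgeR). CC 1 was above CC 2 for both genes, by less than the distance to the lower −Fe library. The gene of adenine phosphoribosyltransferase 1 (ORUFI12G19290, chromosome 12), an enzyme that recycles adenine, which the salvage pathway releases, had 209 and 195 CPM under CC and 1029 and 881 CPM under −Fe (log2 fold change 2.24 ± 0.131 SE, adjusted p = 0.00142 in edgeR). The largest change of the list belonged to the gene of ribose-phosphate pyrophosphokinase 4 (ORUFI02G31750, chromosome 2), an enzyme that makes the phosphoribosyl donor of nucleotide synthesis, with 107 and 68.4 CPM under CC and 1125 and 913 CPM under −Fe (log2 fold change 3.54 ± 0.251 SE, adjusted p = 0.00183 in edgeR). It shared reads with another gene. The smallest was that of the methylthioadenosine nucleosidase gene (ORUFI06G00790), whose level rose 2.99-fold and whose call was lost without −Fe 1.

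Transport genes differed widely in level. *IRT1* (ORUFI03G29910, chromosome 3), the ferrous iron transporter of the root surface, had 2.48 and 3.21 CPM under CC and 110.4 and 90.4 CPM under −Fe (log2 fold change 5.13 ± 0.200 SE, adjusted p = 0.000675 in edgeR). *YSL15* (ORUFI02G27480, chromosome 2), which takes up the iron(III)-deoxymugineic acid complex, had 42.0 and 40.4 CPM under CC and 674 and 797 CPM under −Fe (log2 fold change 4.16 ± 0.142 SE, adjusted p = 0.000527 in edgeR). The −Fe libraries were thus several times above CC for the transporters of both routes, and both genes shared reads. Per transcript length, *YSL15* had a mean of 476 TPM under −Fe and *IRT1* 118 TPM. *IRT2* (ORUFI03G29890, chromosome 3), a second ferrous iron transporter, had 1 count over both CC libraries and 199 counts over both −Fe libraries, a ratio of 177 with an exact 95% counting interval of 31.4 to 7024, and shared reads as well. Its adjusted p was 0.00284 in edgeR.

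*NRAMP1* (ORUFI07G09420, chromosome 7), a metal transporter of the NRAMP family, had 14.5 and 16.0 CPM under CC and 172 and 153 CPM under −Fe (log2 fold change 3.41 ± 0.133 SE, adjusted p = 0.000675 in edgeR). *ENA1* (ORUFI11G03210, chromosome 11), which exports nicotianamine, had 14.9 and 10.6 CPM under CC and 78.7 and 81.3 CPM under −Fe (log2 fold change 2.65 ± 0.190 SE, adjusted p = 0.00183 in edgeR). *OPT7* (ORUFI03G35800, chromosome 3), an oligopeptide transporter, had 8.71 and 7.93 CPM under CC and 142 and 113 CPM under −Fe (log2 fold change 3.93 ± 0.170 SE, adjusted p = 0.000721 in edgeR). These 3 genes did not share reads. *YSL9* (ORUFI04G21940, chromosome 4), another chelate transporter, rose least of the 7, from 27.6 and 22.8 CPM to 82.5 and 78.3 CPM (log2 fold change 1.67 ± 0.140 SE, adjusted p = 0.00238 in edgeR), shared reads, and was not called without −Fe 1. *VIT2* (ORUFI09G10010, chromosome 9) differs from the others in its role, since it moves iron into the vacuole, and it was the member that fell. It had 25.5 and 24.7 CPM under CC and 9.83 and 11.8 CPM under −Fe (log2 fold change −1.21 ± 0.164 SE, adjusted p = 0.00797 in edgeR). It shared reads, and its call was lost without either −Fe library.

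Of the regulators, 4 of 4 rose. *IRO2* (ORUFI01G47560, chromosome 1), the bHLH factor that activates chelator genes, had 18.1 and 21.9 CPM under CC and 216 and 203 CPM under −Fe (log2 fold change 3.39 ± 0.141 SE, adjusted p = 0.000694 in edgeR). *IRO3* (ORUFI03G20000, chromosome 3), a bHLH repressor of the same response, had 20.9 and 29.3 CPM under CC and 107 and 93.0 CPM under −Fe (log2 fold change 1.99 ± 0.189 SE, adjusted p = 0.00303 in edgeR). The activator and the repressor had similar CC levels in CPM, but per transcript length the CC means were 39.1 TPM for *IRO2* and 15.7 TPM for *IRO3*. They also differed in the size of their rise, and neither difference between the genes was tested. *HRZ1* (ORUFI01G30140, chromosome 1) had 39.7 and 44.0 CPM under CC and 108 and 105 CPM under −Fe, and *HRZ2* (ORUFI05G26690, chromosome 5) had 26.7 and 26.5 CPM under CC and 83.9 and 72.5 CPM under −Fe. Their log2 fold changes were 1.35 and 1.56 (edgeR adjusted p = 0.00239 and 0.00232), the smallest of the 4. *IRO3*, *HRZ1* and *HRZ2* shared reads, and without −Fe 1 the test called *IRO2* alone of the 4.

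**Figure D2:**
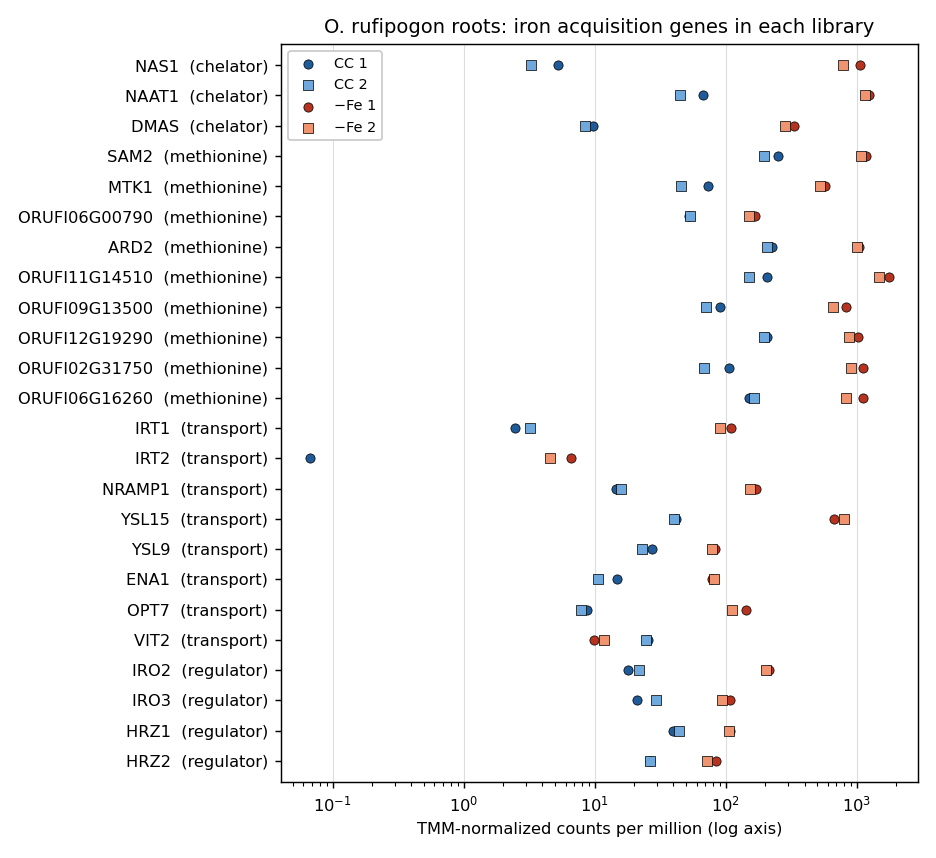
Level of the 24 iron acquisition genes in each of the 4 libraries (TMM-normalized CPM, log axis), with circles for replicate 1 and squares for replicate 2 and the list of each gene in parentheses. In 23 genes both −Fe points lie to the right of both CC points, *VIT2* is the exception, and *IRT2* has no point for CC 2 because its count there was 0.

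Genes of other metals moved in both directions, 4 up and 2 down of 6, where 11.9% of all tested genes were up and 4.15% down. They too were taken from the ortholog pairs that responded in these samples, so their calls are not independent evidence. The metallothioneins, small cysteine-rich proteins that bind metals, had the highest levels per transcript length of the listed genes under −Fe. *MT4A* (ORUFI12G18180, chromosome 12) had 46.2 and 47.5 CPM under CC and 2069 and 1686 CPM under −Fe, a 40.0-fold rise (log2 fold change 5.32 ± 0.165 SE, adjusted p = 0.000527 in edgeR). The gene of metallothionein-like protein 1 (ORUFI12G18020, chromosome 12) had 312 and 362 CPM under CC and 1863 and 2063 CPM under −Fe (log2 fold change 2.54 ± 0.138 SE, adjusted p = 0.00118 in edgeR), and its mean under −Fe of 10694 TPM was the highest of the 102 genes listed. Both shared reads, with 3421 TPM for *MT4A* next in that order. *COPT5.1* (ORUFI09G12590, chromosome 9), a copper transporter, rose from 1.07 and 2.04 CPM to 15.9 and 10.8 CPM (log2 fold change 3.08 ± 0.366 SE, adjusted p = 0.00527 in edgeR). *ZIP4* (ORUFI08G06860, chromosome 8), a zinc transporter of the family of *IRT1*, rose less, from 29.3 and 22.0 CPM to 52.0 and 45.1 CPM (log2 fold change 0.92 ± 0.178 SE, adjusted p = 0.0230 in edgeR). *NRAMP7* (ORUFI12G18860, chromosome 12) belongs to the family of *NRAMP1* and went the other way, from 27.5 and 33.5 CPM to 16.9 and 18.2 CPM (log2 fold change −0.79 ± 0.160 SE, adjusted p = 0.0257 in edgeR). *OsCDT5* (ORUFI05G05490, chromosome 5), a short cadmium tolerance gene that shared reads, fell from 88.0 and 82.7 CPM to 52.0 and 59.8 CPM (log2 fold change −0.61, edgeR adjusted p = 0.0255). Without −Fe 1, 2 members of the list were called, and without −Fe 2, 3 were, in each case upward.

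Phosphate and lipid genes fell together. All 13 genes of a list of phosphate sensing, phosphatases and lipid remodelling were called down, where 4.15% of all genes were, with a median log2 fold change of −1.44. SPX proteins and purple acid phosphatases are known for the phosphate starvation response, in which plants release phosphate from organic compounds and replace phospholipids in membranes by glycolipids. The list was put together here from genes that the study's ortholog table gives as down, so its direction is not independent evidence. The gene of a glycerophosphoryl diester phosphodiesterase (ORUFI02G19040, chromosome 2), of a family that breaks down deacylated phospholipids, had 663 and 913 CPM under CC and 319 and 262 CPM under −Fe (log2 fold change −1.44 ± 0.191 SE, adjusted p = 0.00737 in edgeR). *OsPAP3b* (ORUFI10G00780, chromosome 10), a purple acid phosphatase that shared reads, had 80.1 and 74.1 CPM under CC and 26.8 and 20.9 CPM under −Fe (log2 fold change −1.69 ± 0.158 SE, adjusted p = 0.00298 in edgeR). The gene of a probable inactive purple acid phosphatase 16 (ORUFI01G47010, chromosome 1) went from 60.6 and 54.4 CPM to 22.0 and 16.0 CPM (log2 fold change −1.60 ± 0.185 SE, adjusted p = 0.00498 in edgeR). These genes kept their treatments apart, although CC 2 was well above CC 1 for the phosphodiesterase. The same order of the CC libraries held for other members, among them *SPX1*, *SPX2* and the purple acid phosphatase gene ORUFI01G36050, but not for *OsPAP3b* and ORUFI01G47010.

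On the lipid side, the gene of digalactosyldiacylglycerol synthase 2 (ORUFI03G08360, chromosome 3), which makes a galactolipid that can stand in for phospholipids, had 70.3 CPM in each CC library and 33.5 and 31.7 CPM under −Fe (log2 fold change −1.11 ± 0.114 SE, adjusted p = 0.00373 in edgeR). The largest fall of the list was that of a gene with a glycolipid transfer protein (GLTP) domain (ORUFI04G14680, chromosome 4), from 7.04 and 9.57 CPM to 2.47 and 1.48 CPM (log2 fold change −2.08 ± 0.330 SE, adjusted p = 0.0126 in edgeR). The smallest was that of *IPP* (ORUFI02G31040, chromosome 2), a soluble inorganic pyrophosphatase that shared reads, from 88.5 and 84.2 CPM to 65.1 and 54.4 CPM (log2 fold change −0.53, edgeR adjusted p = 0.0445). Its call was lost with upper-quartile factors (edgeR adjusted p = 0.0659, with a range of 0.000709 to 0.432 over the alternatives other than a minimum fold change). Without CC 2 all 13 genes were called down, with a median of −1.19, and without CC 1 all 13 were as well, with −1.55. Without −Fe 1 or −Fe 2 none of the 13 was called by edgeR, with medians of −1.57 and −1.28.

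**Figure D3:**
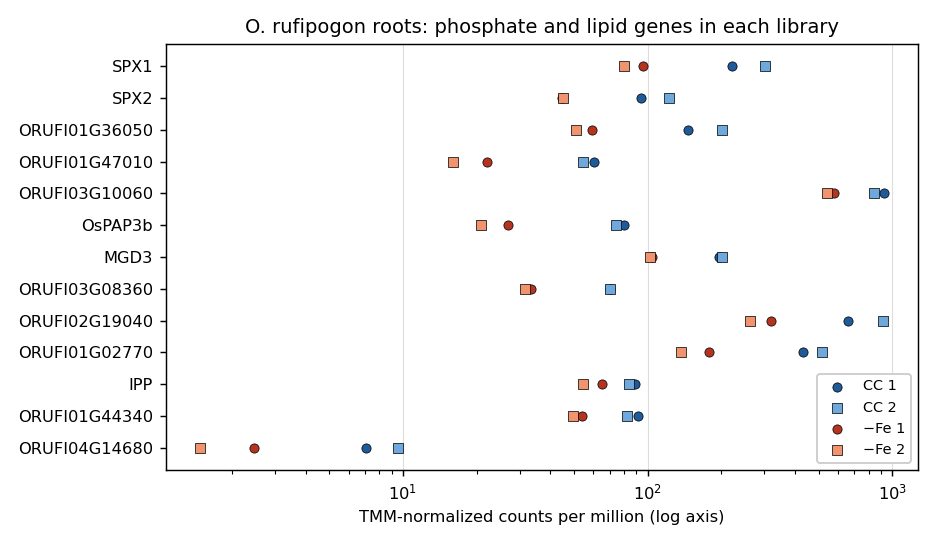
Level of the 13 phosphate and lipid genes in each of the 4 libraries (TMM-normalized CPM, log axis), with circles for replicate 1 and squares for replicate 2. In every row both −Fe points lie to the left of both CC points, and the phosphodiesterase ORUFI02G19040 shows CC 2 at 913 CPM against 663 CPM in CC 1.

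The gene ontology names in the study's supplementary table of *O. rufipogon* transcripts allowed further groups to be followed at the level of whole genes. That table lists transcripts that the authors called lower or left just outside their threshold, so a group's direction is fixed by the choice and only the gene-level values are described. Of 584 genes with a transcript in the list of falls, 519 were called down by summed counts, 4 were called up and 61 were not called. Among 9 genes annotated with acid phosphatase activity, 8 fell. Their log2 fold changes ran from −1.69 to −0.43, and the ninth (ORUFI06G24180) had 101 and 96.1 CPM under CC and 71.0 and 76.2 CPM under −Fe (edgeR adjusted p = 0.0511). For the response to phosphate starvation, 5 of 5 genes fell. The largest fall there was that of ORUFI03G21570 on chromosome 3, also annotated with the response to cold, from 54.4 and 85.3 CPM to 21.3 and 15.7 CPM (log2 fold change −1.92 ± 0.263 SE, adjusted p = 0.00817 in edgeR). In glycolipid synthesis, where 3 of 3 fell, it was that of the hexosyltransferase gene ORUFI08G11040 on chromosome 8, from 106 and 116 CPM to 40.7 and 22.8 CPM (log2 fold change −1.80 ± 0.272 SE, adjusted p = 0.0123 in edgeR).

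Of 49 genes with protein kinase activity, 39 fell and 3 rose, and the median log2 fold change was −0.75. Over all 602 genes of the supplementary table with a gene ontology name, 441 fell and 84 rose with a median of −0.57, so the direction of the kinase genes is that of the table they were drawn from. The largest fall was that of a senescence-induced receptor-like kinase gene (ORUFI09G07640, chromosome 9), from 3.89 and 3.38 CPM to 0.294 and 0.846 CPM (log2 fold change −2.63 ± 0.471 SE, adjusted p = 0.0180 in edgeR). At higher levels, the kinase gene ORUFI01G36480 (chromosome 1), annotated as a membrane component, had 231 and 293 CPM under CC and 109 and 115 CPM under −Fe (log2 fold change −1.23, edgeR adjusted p = 0.00501). The gene that rose most, ORUFI01G25910 (chromosome 1), stayed low, with 0.268 and 0.350 CPM under CC and 2.65 and 2.22 CPM under −Fe (log2 fold change 2.94, edgeR adjusted p = 0.00852). The 3 genes of phosphatidylinositol phosphate kinases, which make membrane signalling lipids, also fell, by −1.01 to −0.55 on the log2 scale. Without −Fe 1 or −Fe 2 none of the 49 kinase genes was called, and without CC 2 there were 43 down and 4 up.

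Genes annotated with iron or heme binding included both directions, with more falls than rises. That order also holds for the 602 genes with a gene ontology name (441 down and 84 up), and these groups are too small to compare shares. Of 8 genes with iron ion binding, 6 fell and 2 rose, and of 9 with heme binding, 6 fell and 3 rose. Among them, 6 genes with both names and monooxygenase activity, the annotation that cytochrome P450 enzymes carry, were split into 4 that fell and 2 that rose. ORUFI11G22410 (chromosome 11) fell from 27.5 and 24.7 CPM to 11.2 and 11.0 CPM (log2 fold change −1.23, edgeR adjusted p = 0.00572), while ORUFI10G01990 (chromosome 10) rose from 2.01 and 3.73 CPM to 10.1 and 9.09 CPM (log2 fold change 1.73, edgeR adjusted p = 0.0198). Both sulfate transporter genes fell, ORUFI01G32160 from 23.9 and 26.1 CPM to 9.65 and 11.9 CPM and ORUFI03G06860, which shared reads, from 148 and 179 CPM to 73.6 and 87.2 CPM. Of the 5 genes of calcium transport, 3 fell. The gene of an ATP-driven calcium pump (ORUFI05G22720, chromosome 5) had 110 and 114 CPM under CC and 55.5 and 63.9 CPM under −Fe (log2 fold change −0.90, edgeR adjusted p = 0.00727).

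Smaller groups pointed both ways. Of 9 genes with sequence-specific transcription factor activity, 4 fell and 4 rose. ORUFI05G29280 (chromosome 5) had the second largest fall of all called genes with a mean count of at least 50, from 5.90 and 12.2 CPM to 0.824 and 0.423 CPM (log2 fold change −3.86 ± 0.508 SE, adjusted p = 0.00718 in edgeR). ORUFI06G06250 was lower under −Fe at a far higher level, 947 and 966 CPM against 562 and 564 CPM (log2 fold change −0.77, edgeR adjusted p = 0.00829), and shared reads. ORUFI05G02170 rose from 5.56 and 11.2 CPM to 36.9 and 32.0 CPM (log2 fold change 2.03, edgeR adjusted p = 0.0124), and shared reads. Of 6 genes of ribosomal proteins, 4 rose and 1 fell, whereas 2 of 2 genes of the elongation of very long fatty acids (3-hydroxyacyl-CoA dehydratases) and 3 of 3 genes of motor proteins fell. For the dehydratases, ORUFI01G03340 went from 283 and 285 CPM to 164 and 175 CPM and ORUFI04G06700 from 133 and 126 CPM to 75.5 and 74.4 CPM, and both shared reads. Groups of this size are too small for their counts to be read against the 4.15% of all genes that fell.

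A list of hormone and signalling genes had 2 up and 5 down of 7, with 3 hormone genes, of which 2 rose and 1 fell. Over all tested genes, 11.9% were up and 4.15% down. The list was drawn from the study's ortholog pairs that responded in these samples, so its calls are not independent evidence. The other members, 3 kinase genes and *GAP1*, fell by 0.54 to 2.63 on the log2 scale. *CKX5* (ORUFI01G36000, chromosome 1), which breaks down cytokinin, rose from 0.469 and 0.992 CPM to 5.53 and 5.23 CPM (log2 fold change 2.85 ± 0.374 SE, adjusted p = 0.00717 in edgeR). *CYP714D1* (ORUFI05G21860, chromosome 5), which inactivates gibberellin, rose from 1.74 and 3.44 CPM to 14.8 and 12.3 CPM (log2 fold change 2.37 ± 0.334 SE, adjusted p = 0.00883 in edgeR), and shared reads. *IAA6* (ORUFI01G33490, chromosome 1), a repressor of auxin responses that shared reads, fell from 162 and 189 CPM to 94.0 and 98.2 CPM (log2 fold change −0.87 ± 0.120 SE, adjusted p = 0.00830 in edgeR). The genes of hormone breakdown thus started from levels of 0.469 to 3.44 CPM, and the auxin gene from far above. Without −Fe 1 or −Fe 2 none of the 7 was called.

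Of 5 genes of mitochondria and energy metabolism, 4 of which shared reads, 3 fell and 1 rose. Over all tested genes 4.15% fell and 11.9% rose, and these 5 were chosen from ortholog pairs that responded in these samples. The gene of the pyruvate dehydrogenase E1 subunit beta (ORUFI08G24240, chromosome 8), part of the enzyme that feeds the citric acid cycle, went from 200.1 and 180.1 CPM to 106 and 124 CPM (log2 fold change −0.72 ± 0.126 SE, adjusted p = 0.0168 in edgeR). The gene of a mitochondrial adenylate kinase (ORUFI08G01360, chromosome 8) had 42.3 and 40.0 CPM under CC and 25.1 and 28.5 CPM under −Fe (log2 fold change −0.62, edgeR adjusted p = 0.0317). *BCS1* (ORUFI01G24790, chromosome 1), related to a chaperone of the respiratory chain, rose from 47.3 and 40.9 CPM to 69.3 and 62.0 CPM (log2 fold change 0.57, edgeR adjusted p = 0.0382), a call lost with limma on TPM (adjusted p = 0.0796 and 0.0817, and up to 0.406 without −Fe 1). The isocitrate dehydrogenase gene ORUFI04G19660 was at 102 and 101 CPM under CC and at 81.7 and 82.9 CPM under −Fe and was not called (edgeR adjusted p = 0.0992). All calls of this list were lost without −Fe 1 and without −Fe 2.

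Among the other 47 genes of the ortholog table, 26 rose, 19 fell and 2 were not called, against 11.9% up and 4.15% down over all tested genes. That table holds pairs that responded in these samples, so these counts are not independent evidence. Named members came from plastid, wall and storage metabolism. *NYC1* (ORUFI01G08790, chromosome 1), a chlorophyll b reductase, fell from 67.0 and 81.0 CPM to 25.6 and 29.7 CPM (log2 fold change −1.42 ± 0.152 SE, adjusted p = 0.00412 in edgeR). *4CL1* (ORUFI08G08590, chromosome 8), a 4-coumarate-CoA ligase of the path to lignin, fell from 186 and 226 CPM to 125 and 134 CPM (log2 fold change −0.67 ± 0.131 SE, adjusted p = 0.0230 in edgeR), and shared reads. The gene of a nuclease (ORUFI04G29370, chromosome 4) fell from 779 and 1014 CPM to 354 and 343 CPM (log2 fold change −1.36 ± 0.154 SE, adjusted p = 0.00466 in edgeR). Upward, *R40C1* (ORUFI03G16490, chromosome 3), a lectin, went from 134 and 128 CPM to 672 and 504 CPM (log2 fold change 2.17 ± 0.165 SE, adjusted p = 0.00199 in edgeR), and *SSII-2* (ORUFI02G33990, chromosome 2), a starch synthase, from 3.35 and 4.02 CPM to 14.2 and 13.9 CPM (log2 fold change 1.92 ± 0.201 SE, adjusted p = 0.00382 in edgeR). Both shared reads. A gene of an amino acid transporter (ORUFI01G42590, chromosome 1) rose from 3.22 and 2.04 CPM to 27.2 and 23.6 CPM (log2 fold change 3.28 ± 0.254 SE, adjusted p = 0.00211 in edgeR). The gene ORUFI06G28520, listed as up in the ortholog table, was not called, with 8.78 and 18.6 CPM under CC and 12.2 and 14.3 CPM under −Fe (edgeR adjusted p = 0.937), since CC 1 lay below and CC 2 above both −Fe libraries. Without −Fe 1 and without −Fe 2, the falls of this list and most of its rises were not called.

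Outside the lists, most of the largest changes belonged to genes without annotation in the sources used here. Of the 10 called genes with the largest rise among those with a mean count of at least 50, *NAS1* and *IRT2* were named. The largest rise of these was in ORUFI12G18480 (chromosome 12, 309 bases, sharing reads), with 0 counts in both CC libraries and 14.8 and 8.83 CPM under −Fe, at least 62.1-fold higher when set against the floor of 3 counts in each CC library. ORUFI12G09590 (chromosome 12, 447 bases, not sharing reads) rose from 0.335 and 0.467 CPM to 52.2 and 39.2 CPM (log2 fold change 6.79 ± 0.287 SE, adjusted p = 0.000694 in edgeR). Of all up-regulated genes, 69 had 0 counts in both CC libraries. The largest fall under the same limit on counts was that of ORUFI09G14660 (chromosome 9, sharing reads). It had 28.8 CPM in CC 1 and 144 CPM in CC 2 against 6.83 and 4.97 CPM under −Fe, so its size rested mostly on CC 2. Its call was lost with median-ratio factors (edgeR adjusted p = 0.0526) and without −Fe 1. A gene of lipid catabolism (ORUFI11G23670, chromosome 11, sharing reads) went from 41.8 and 53.4 CPM to 7.77 and 2.64 CPM (log2 fold change −3.20 ± 0.496 SE, adjusted p = 0.0175 in edgeR), and its call was lost without CC 1 (edgeR adjusted p = 0.121) and without CC 2 (edgeR adjusted p = 0.193). A gene of an oxygenase that binds metal (ORUFI09G05990, chromosome 9) went from 14.5 and 23.9 CPM to 3.53 and 2.75 CPM (log2 fold change −2.61 ± 0.309 SE, adjusted p = 0.00518 in edgeR).

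Among the 5 most abundant genes called in each direction, log2 fold changes ran from 0.56 to 1.62 upward and from −1.12 to −0.42 downward. The most abundant down-regulated gene with an annotation was ORUFI08G05770 (chromosome 8), a nutrient reservoir protein that binds manganese, at 1387 and 1852 CPM under CC and 686 and 802 CPM under −Fe (log2 fold change −1.12 ± 0.176 SE, adjusted p = 0.0121 in edgeR). An aspartic endopeptidase gene (ORUFI05G02650, chromosome 5) followed with 1173 and 1313 CPM under CC and 829 and 802 CPM under −Fe (log2 fold change −0.61 ± 0.117 SE, adjusted p = 0.0227 in edgeR). Of the up-regulated genes at this level the annotated one encodes a GTP-binding protein (ORUFI03G05540, chromosome 3), with 2918 and 2543 CPM under CC and 4318 and 4027 CPM under −Fe (log2 fold change 0.61 ± 0.132 SE, adjusted p = 0.0312 in edgeR). All 3 shared reads, and the last call was lost with limma on TPM (adjusted p = 0.0557 and 0.0580, and up to 0.372 without −Fe 1).

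The response changed with transcript length. When the tested genes were split by their longest transcript into 5 classes of equal size, the share called up fell from 21.9% in the shortest class (156 to 816 bases) through 15.1%, 11.1% and 6.91% to 4.41% in the longest class (2641 to 18920 bases). The share called down rose over the same classes, from 1.54% through 3.23%, 3.98% and 5.75% to 6.24%. Short genes were thus shifted up and long genes down as whole classes: the median log2 fold change was 0.40 in the shortest class and −0.13 in the longest. Spearman's correlation of length and log2 fold change across the 21081 genes was −0.273, a description across genes that share the same 4 libraries, and it was −0.224 over the 15460 genes with a mean count of at least 50. It lay between −0.299 and −0.226 for each of the 4 pairs of a −Fe with a CC library. Between the libraries of one treatment it was −0.013 for CC 2 over CC 1 and 0.123 for −Fe 2 over −Fe 1.

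In *O. sativa* roots under the same treatments the correlation had the opposite sign, 0.079 over 25767 genes, and the share called up lay between 2.58% and 3.51% in every length class. The difference between the species was not tested. Length also goes with level in CPM, which is not divided by transcript length. The median of the mean level was 3.05 CPM in the shortest class and 33.1 CPM in the longest. Within 5 classes of mean CPM, which themselves depend on length, the correlation in *O. rufipogon* was negative, from −0.129 to −0.232. In the highest of these, 28.7% of the 380 genes of the shortest length class and 2.80% of the 1391 of the longest were called up. When an offset for length was fitted in each library, 2149 genes were called up and 1063 down, of which 2072 and 675 were also called without it, and the share called up still fell from 14.9% in the shortest class to 5.60% in the longest. The share called down turned its direction with the offset, from 7.50% in the shortest class through 5.97%, 4.43% and 4.32% to 2.99% in the longest. The part that length plays in the other calls was not tested. With the offset, the 24 iron acquisition genes, 561 to 4203 bases long, again gave 23 up and 1 down, and the 13 phosphate and lipid genes all stayed down. Their median log2 fold changes without the offset, 3.20 and −1.44, were larger in size than the class medians of 0.40 and −0.13. Both lists were also chosen from genes that responded in these samples, so their calls cannot show the part of length.

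**Figure D4:**
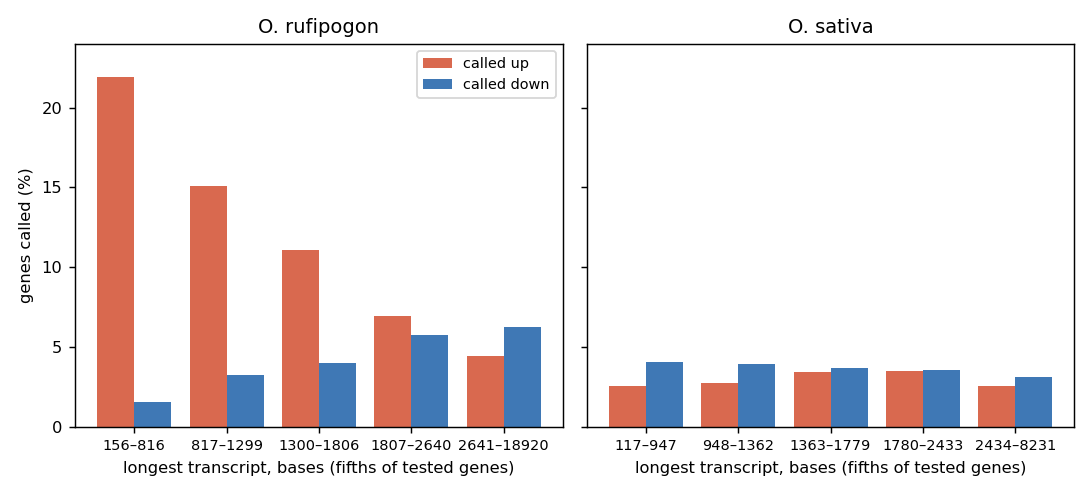
Percentage of tested genes called up and down at an FDR of 0.05 in 5 classes of equal size by the longest transcript (bases), for *O. rufipogon* (left) and, for comparison, *O. sativa* (right) on the same axis. In *O. rufipogon* the up share falls from 21.9% to 4.41% and the down share rises from 1.54% to 6.24%, while in *O. sativa* the up share stays between 2.58% and 3.51%.

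Level itself went with direction too. In 5 classes of mean level, the share called up was 14.2%, 19.0%, 11.7%, 6.64% and 7.78% from the lowest to the highest, and the share called down was 0.261%, 1.61%, 3.18%, 5.43% and 10.2%. The lowest class ran from 0.139 to 1.669 CPM, where few counts leave little room for a fall to be called. The filter can be passed through 1 treatment alone: 69 up-regulated genes had 0 counts in both CC libraries and 2 down-regulated genes had 0 in both −Fe libraries. The part of filter and depth in these shares was not tested. Along the genome the calls were spread over all 12 chromosomes. The share called up lay between 9.63% on chromosome 12 and 13.0% on chromosome 9, and the share called down between 2.95% on chromosome 3 and 4.81% on chromosome 2. In the order of identifiers, 644 of the 2504 up-regulated genes had a neighbouring tested gene that was also up, and 94 of the 874 down-regulated genes had one that was also down. With 11.9% of all tested genes up and 4.15% down, some called neighbours arise in any order of genes. The number to be met without clustering was not computed, so these counts do not show clustering.

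Transcripts of a gene did not always move together. Tested one by one, 3.63% of 25071 transcripts were called, 3.02% up and 0.602% down, a smaller share than for genes, and the biological coefficient of variation was 37.1% for transcripts against 16.8% for genes. In 9 genes 1 transcript was called up and another down. These calls were the least stable of all: with the replicate number as a block, and without either −Fe library, edgeR called 0 transcripts, while 5549, 2710 and 3073 had an unadjusted p under 0.05 and DESeq2 on all libraries called 3380. Without CC 2 there were 1600. Kallisto divides reads between transcripts of a gene that overlap, an error the test does not include, so the levels of single transcripts are less certain than those of genes.

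Of these 9 genes, those given here are the 5 with the largest values for the smaller of both log2 changes, where both transcripts had a mean count of at least 50. For ORUFI01G16740 (chromosome 1), an oxidoreductase that binds heme and an iron-sulfur cluster, transcript 1 rose from 25.7 and 35.3 CPM to 181 and 196 CPM (edgeR adjusted p = 0.0284). Transcript 2 had 55.9 and 46.7 CPM under CC and 0 counts in both −Fe libraries (edgeR adjusted p = 0.0251). The summed gene rose from 81.6 and 82.1 CPM to 181 and 196 CPM (log2 fold change 1.20 ± 0.106 SE, adjusted p = 0.00258 in edgeR), and it shared reads with another gene. A protein kinase gene with 7 transcripts (ORUFI12G00430, chromosome 12) exchanged its main transcript with little change in the sum. Its transcript 4 went from 157 and 160.3 CPM to 0.471 and 0.318 CPM and its transcript 6 from 37.2 and 35.5 CPM to 149.3 and 187 CPM. The summed gene stood at 224 and 223 CPM under CC and 180.2 and 218 CPM under −Fe and was not called (edgeR adjusted p = 0.396), and it shared reads, as did the next gene.

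A second kinase gene, ORUFI04G26970 (chromosome 4, 10 transcripts), had 22.1 and 29.0 CPM of transcript 1 under CC and 0 counts under −Fe, while transcript 2 rose from 3.02 and 1.81 CPM to 19.8 and 15.2 CPM (edgeR adjusted p = 0.0284 and 0.0445). In ORUFI03G06510 (chromosome 3), a nuclear protein that binds DNA, transcript 2 went from 9.79 and 8.51 CPM to 0 counts and transcript 1 from 2.82 and 2.45 CPM to 13.9 and 17.0 CPM, although the summed gene fell (log2 fold change −0.53, edgeR adjusted p = 0.0327). ORUFI05G03590, which has no annotation here, showed the same exchange at a summed level of 8.58 and 10.9 CPM under CC and 9.94 and 11.0 CPM under −Fe. Transcripts at 0 were not confined to these genes: 37 transcripts called down had 0 counts in both −Fe libraries, in 37 genes of which 6 were called down as a whole and 4 were called up. Upward, 50 transcripts of 49 genes had 0 counts in both CC libraries, and 11 of those genes were called up as a whole and 2 were called down.

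**Figure D5:**
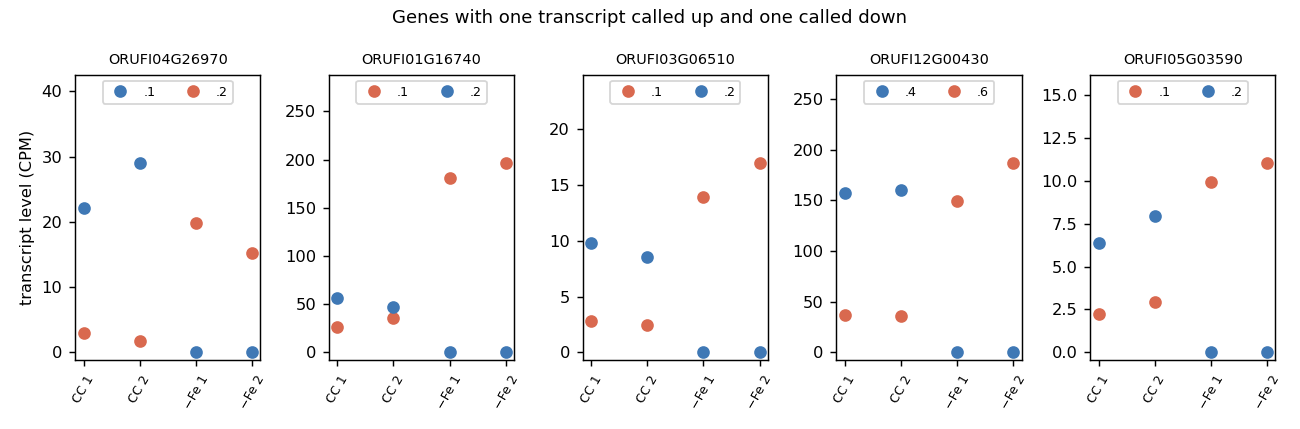
Level (CPM) in each of the 4 libraries of the transcript called up (red) and the transcript called down (blue) of 5 genes, with the transcript number in the legend and a separate axis for each gene. In 4 of the genes the blue transcript is at 0 in both −Fe libraries, and in ORUFI12G00430 it falls from 157 and 160.3 CPM to 0.471 and 0.318 CPM.

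Genes with several transcripts were called less often as a whole. Of the 16017 tested genes with 1 transcript, 18.0% were called, and of the 5064 with more, 9.91% were. The number of transcripts goes with gene length, and its part in the result was not tested separately. Of the 2504 up-regulated genes, 679 had a transcript that was called up by itself and 4 had one that was called down. Of the 874 down-regulated genes, 104 had a transcript called down and 3 had one called up.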

How the data were processed

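RNAseq was made from roots of *O. rufipogon* under CC and −Fe, with 2 libraries per treatment, assigned by their labels. The labels name FastQC and Kallisto, whose versions are not given in the sources used here, and the authors deposited the estimated counts, TPM and length of each transcript. The labels name IRGSP-1.0 as the build for all samples, while the identifiers are those of *O. rufipogon*, so coordinates are not given and the chromosome is read from the identifier. The gene lists and the members were chosen with earlier results of these data known, and gene names come from the study's ortholog table.

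Estimated counts were summed over the transcripts of a gene and rounded. Genes with at least 5 counts in at least 2 libraries entered edgeR 4.0.16 in R 4.3.3 (robust quasi-likelihood fit, TMM normalization), with Benjamini-Hochberg adjustment over all tested genes and a threshold of 0.05. The standard error is the size of the log2 fold change divided by the square root of F. Levels are TMM-normalized CPM. With 2 libraries against 2, the two-sided p of an exact permutation test has a lowest possible value of 0.333. Besides listed genes, the text names the 10 called genes with the largest rise and fall and the 5 with the highest level in each direction where annotated, with at most 2 others each way, 5 genes with opposed transcripts, and at most 4 examples of a gene ontology name. Alternatives were median-ratio and upper-quartile factors, DESeq2 1.42.0, limma 3.58.1 on log2 CPM and on log2 of TPM plus 1 or 0.1, other filters on low counts, a minimum log2 fold change of 1, a length offset, the replicate number as a block, genes with whole estimates only, and leaving out each library. The gene test was also run on simulated counts with the same spread in both treatments, so that run does not cover the unequal spread of the CC and −Fe pairs.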

Additional observations from a re-analysis of the deposited data

How the results depend on the processing

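With 2 libraries per treatment, the number of called genes depended on which library was left out. A treatment left with 1 library takes its spread from the pair of the other treatment, and the −Fe pair was the tighter of the 2. Leaving out 1 library moved the count of called genes between 113 and 9604, with 110 to 4961 up and 3 to 4643 down. The transcripts called moved between 0 and 4651, with 0 to 2585 up and 0 to 2066 down. The listed genes called moved between 25 and 102, with 25 to 57 up and 0 to 46 down. The cause of these moves was not tested. A minimum log2 fold change of 1 left 782 genes, 764 up and 18 down, and 49 listed genes, 4 of them down. Testing only genes with whole estimates, which drops every gene that shares reads, left 1980 genes, 1427 up and 553 down, and 55 listed genes, 33 up and 22 down. The down-regulated genes numbered 1323 with DESeq2, 1546 and 1391 with limma on log2 of TPM plus 1 and plus 0.1, and 577 with at least 10 counts in every library, and the cause was not tested. Of the transcripts, DESeq2 called 3380, 2013 up and 1367 down, and at least 10 counts in every library gave 1530, 1252 up and 278 down.

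No block is set by the design. Same-numbered libraries deviated together with a correlation of 0.0443 across 21081 genes, over only 2 pairs. With the replicate block 3489 genes were called, 2467 up and 1022 down, and 99 listed genes, while 0 transcripts passed, 0 up and 0 down (5549 at an unadjusted p under 0.05). With the block and the length offset together there were 1906 up and 978 down. The correlation of length with log2 fold change was −0.224 for genes with a mean count of at least 50 and lay between −0.299 and −0.213 without 1 library. ORUFI06G28520 reversed without CC 2 (log2 fold change 0.60, edgeR adjusted p = 0.0275) and was called down without CC 1 (−0.51, edgeR adjusted p = 0.0171), and ORUFI08G00100, a gene with opposed transcripts, reversed on log2 TPM, with −0.035 and −0.040.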
